A study of Homo sapiens with 12 samples.

Results

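The steady-state levels of miRNAs in OCI-My5 multiple myeloma cells with overexpressed AGO2 were compared with those in cells with silenced AGO2, in both cell lines of the study. The comparison takes 4 of the 12 arrays of the series. In My5/LV cells, My5/LV/EIF2C2 (AGO2 cDNA) was set against My5/LV/sh72 (AGO2-shRNA), and in My5/CRBN cells, My5/CRBN/EIF2C2 was set against My5/CRBN/sh72, where EIF2C2 is an older symbol of AGO2. All 372 human miRNA assays of the array were taken, with no choice by value, and the comparisons of the 2 lines have no array in common.

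OCI-My5 is a human myeloma line that makes little cereblon (CRBN), the protein that binds lenalidomide. Both lines were made from it by lentiviral infection and sorting for GFP, a vector marker. My5/LV cells carry the empty vector, and My5/CRBN cells express His-tagged CRBN cDNA. On top of this, the cells received a lentivirus with either epitope-tagged AGO2 cDNA or AGO2-shRNA72, were selected with puromycin and, per the study's figure legends, were harvested after 3 days. None of these 4 samples, nor the untreated My5/LV and My5/CRBN samples used below for orientation, received lenalidomide. The labels of the untreated samples name no second vector, not even an empty one, so the effect of infection and selection cannot be told apart from that of the insert in any comparison with them. Per the study's methods, the AGO2 cDNA was carried by a pCDH-Puro vector and the shRNA by pLKO.1. The vector thus differs between AGO2 cDNA and sh72 as well, and no sample is labelled with either of them empty. The paper also reports that AGO2-shRNA72 induced cell death in both lines, and the part of cell death in the values was not tested. The array has no assay for AGO2 itself, so its level could not be checked here. There was 1 array per condition, no difference has a replicate check, and no p-value is given.

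Argonaute 2 is the protein that holds the mature miRNA and presents its seed (bases 2 to 8) to target mRNAs. A miRNA is cut from a hairpin precursor by Drosha and Dicer, one arm of the resulting duplex is loaded into an argonaute and the other is usually discarded, and loading protects the retained strand from decay. Human cells have other argonautes as well. AGO2 is the member of the family with efficient slicing activity, which matures the hairpin of miR-451a without Dicer and removes the passenger strand of miR-486.

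The sequences below are those on which the results turn. They come from RefSeq (GRCh38.p14), which held a mature sequence for 330 of the 372 assays, and capitals mark the seed. The first set shares the seed of miR-301a-3p, the miRNA with the largest value toward AGO2 cDNA in both lines.

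miR-301a-3p: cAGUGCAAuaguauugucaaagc
miR-454-3p: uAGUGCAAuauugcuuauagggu
miR-130b-3p: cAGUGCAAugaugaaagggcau

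The second set is the pair miR-103a-3p and miR-107, which share their seed and differ by the single substitution G22C, counted from 1 at the 5′ end.

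miR-103a-3p: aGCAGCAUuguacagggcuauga
miR-107: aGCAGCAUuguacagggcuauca

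The third set holds let-7 family members with 1 seed and unlike behaviour. Relative to let-7a-5p, let-7e-5p has U9G, and miR-98-5p has G11A and A19U.

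let-7a-5p: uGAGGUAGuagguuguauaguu
let-7e-5p: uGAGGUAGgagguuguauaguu
miR-98-5p: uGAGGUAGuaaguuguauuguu

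The last set holds the miRNA that was lower with AGO2 cDNA in both lines, miR-410-3p, with miR-744-5p and miR-7-5p, which were higher in both, and both arms of the hairpins of miR-335 and miR-378a.

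miR-410-3p: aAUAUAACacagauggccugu
miR-744-5p: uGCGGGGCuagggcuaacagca
miR-7-5p: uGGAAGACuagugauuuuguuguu
miR-335-5p: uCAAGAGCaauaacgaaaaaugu
miR-335-3p: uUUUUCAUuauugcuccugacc
miR-378a-5p: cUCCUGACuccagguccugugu
miR-378a-3p: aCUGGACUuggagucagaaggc

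In GRCh38.p14, miR-301a-3p lies on the minus strand at chr17:59151149-59151171 within the span of SKA2, and miR-454-3p lies 13362 bases from it within the same span. miR-107 lies at chr10:89592756-89592778 (minus strand) within PANK1, and miR-103a-3p at chr5:168560904-168560926 (minus strand) within PANK3 and at chr20:3917541-3917563 (plus strand) within PANK2, so that each is hosted by a gene of a pantothenate kinase. miR-98-5p lies at chrX:53556299-53556320 (minus strand) within HUWE1, 947 bases from a let-7f copy. miR-744-5p lies at chr17:12081909-12081930 within MAP2K4, miR-410-3p at chr14:101065961-101065981 in the imprinted miRNA cluster, and let-7e-5p at chr19:51692793-51692814 within SPACA6, all on the plus strand. The loci read from RefSeq for miR-7-5p, which need not be all, were at chr9:83969811-83969834 (minus strand) within HNRNPK and at chr19:4770700-4770723 (plus strand). The arms of miR-335 lie within MEST and those of miR-378a within PPARGC1B. The table used gives the spans of host genes and does not separate exons from introns.

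The measurement is the threshold cycle (Ct), the PCR cycle at which a well crosses the detection threshold, so that a Ct higher by 1 stands for a level lower by about 2 fold. Values above 35 or undetermined were set to 35, and each array was normalized to its mean Ct over 6 wells for other small RNAs, 5 of the SNORD class and RNU6-2. The log2 fold change is the normalized Ct with sh72 minus that with AGO2 cDNA, so a positive value stands for a higher level with AGO2 cDNA. A miRNA was called at 3 fold. Ct values are quoted before normalization, and log2 values after it. Of the 372 miRNAs, 319 were under Ct 35 on all 4 arrays, 53 were at the cap on at least 1 and 6 on all 4. For a miRNA at the cap on a single array the difference is only a bound.

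The 4 arrays were not alike in their control wells. In My5/LV the mean Ct of the small-RNA wells was 21.0 with sh72 and 21.1 with AGO2 cDNA, but in My5/CRBN it was 20.4 with sh72 and 21.9 with AGO2 cDNA. The positive PCR control wells of My5/CRBN/EIF2C2 were later by 1.62 cycles than those of My5/CRBN/sh72, and its reverse transcription control wells by 1.73 cycles. The same differences in My5/LV were 0.57 and -0.08 cycles. On My5/CRBN/EIF2C2 324 miRNAs were under Ct 35, against 349 to 356 on the other 3 arrays, and 33 miRNAs were at the cap there but not on My5/CRBN/sh72. The part of this late array in the difference between the lines was not tested. Around their mean, the small-RNA wells differed between AGO2 cDNA and sh72 with an SD of 0.23 (My5/LV) and 0.39 (My5/CRBN) on the log2 scale. Paired wells of the same control assay differed on these arrays by a root mean square of 0.26 cycles (reverse transcription control) and 0.18 cycles (positive PCR control). For the late control assay cel-miR-39-3p the same value was 0.89 cycles, with a largest gap of 1.57. Its wells lay at Ct 33.2 or later, some of them at the cap of 35. Of the myeloma cell's own lineage, miR-142-3p, the leading haematopoietic miRNA, had the lowest Ct of its list on all 4 arrays (17.2 to 18.6). The 14 matched miRNAs of liver, muscle, brain and epithelium had a summed log2 level of -3.65 to -1.84, with 0 to 2 of the 14 at the cap. The 9 haematopoietic miRNAs had 2.71 to 4.18. The muscle miRNA miR-1, whose assay name did not match the list, is not in this sum.

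Relative to the small-RNA wells, miRNAs were mostly higher with AGO2 cDNA than with sh72, and 24 stood out in both lines. The My5/LV arrays gave 83 miRNAs higher by 3 fold or more (22.3% of all assays) and 1 lower (0.269%). The My5/CRBN arrays gave 38 higher (10.2%) and 13 lower (3.49%). Higher miRNAs thus made up 98.8% and 74.5% of the calls of the 2 lines, but 52.9% and 45.2% with the global mean of the miRNAs as normalizer, and in My5/CRBN 91.8% with RNU6-2 alone and 93.7% with the reverse transcription control wells. At least 3 fold higher in both lines were 24 miRNAs (6.45% of all assays, 28.9% of the My5/LV list and 63.2% of the My5/CRBN list), all of them under Ct 35 on the 4 arrays. Lower by 3 fold or more in both was miR-410-3p alone (0.269%). For the 24, the log2 fold changes had a median of 2.36 (My5/LV) and 2.19 (My5/CRBN), but since the miRNAs were picked by these values the medians only describe them. At the edge of the list, miR-378a-3p entered at 1.76 in My5/LV and miR-33a-5p at 1.68 in My5/CRBN.

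The medians of the 372 log2 fold changes were 0.86 (My5/LV) and 0.41 (My5/CRBN), and the size and sign of this general shift rest on the normalizer. A normalizer moves every miRNA of a line by the same amount. With the global mean of the miRNAs in place of the small-RNA wells the medians were -0.18 and 0.09, with RNU6-2 alone 1.20 and 0.63, and with the reverse transcription control wells 0.61 and 0.72. The order of the miRNAs within a line is the same under each of these. Each of the 24 shared miRNAs was above 0 in both lines under 6 of the 7 alternatives tried, and the other, a filter at Ct 30, left out miR-186-3p, miR-551b-3p and miR-99a-3p and does not alter values. Past 3 fold in both lines with the global mean were 7 of them, namely miR-107, miR-301a-3p, miR-505-3p, miR-551b-3p, miR-7-5p, miR-744-5p and miR-98-5p. Under all 7, miR-410-3p stayed lower by 3 fold or more in both lines.

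miR-301a-3p, encoded within SKA2, had the largest value toward AGO2 cDNA in both lines. Its Ct was 25.8 with sh72 and 21.4 with AGO2 cDNA in My5/LV, and 24.5 and 21.5 in My5/CRBN. The log2 fold changes were 4.60 and 4.34. After normalization, AGO2 cDNA exceeded the untreated array by 0.61 (My5/LV) and 1.08 (My5/CRBN), and the untreated array exceeded sh72 by 3.99 and 3.25. Its neighbour in the same host gene and member of the same seed group, miR-454-3p, had log2 fold changes of 1.75 and 1.56, and miR-130b-3p had 1.55 and 1.27. So neither the other seed members nor the neighbour in the host gene came near the value of miR-301a-3p, each miRNA being read from a single well. miR-130a-3p, which completes this family on the array, had 0.90 and 1.21.

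miR-98-5p stood apart from the let-7 family in the same way. Its Ct was 27.4 with sh72 and 23.2 with AGO2 cDNA in My5/LV, and 25.9 and 24.4 in My5/CRBN, for log2 fold changes of 4.32 and 3.01. The 8 let-7 assays, miRNAs known for holding back proliferation and RAS and MYC expression, lay between 1.40 and 1.99 on the log2 scale in My5/LV. In My5/CRBN they spread from -1.06 to 1.27, with 6 above 0 and 2 below. let-7e-5p was the lowest of them there. Its Ct in My5/CRBN was 23.54 with sh72 and 26.03 with AGO2 cDNA, whereas in My5/LV it was 24.38 and 22.90. let-7f-5p followed with -0.30 in My5/CRBN and 1.67 in My5/LV. With let-7a-5p separated from let-7e-5p by a single base, crossover of signal between such assays cannot be told from these Ct values.

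miR-103a-3p and miR-107, known to target DICER1 and to affect insulin sensitivity, were at least 3 fold higher in both lines. miR-103a-3p had a Ct of 23.0 with sh72 and 20.6 with AGO2 cDNA in My5/LV, and 21.9 and 21.3 in My5/CRBN (log2 fold changes 2.58 and 2.03). The scarcer miR-107 had 29.3 and 26.2 in My5/LV, and 28.4 and 26.9 in My5/CRBN (3.22 and 2.99). Of the 36 seeds shared by assays among the 330 with a RefSeq sequence, this was the one with all of its assays in the shared list.

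The other shared miRNAs come from many loci. miR-744-5p (3.18 in My5/LV, 3.43 in My5/CRBN), miR-7-5p (3.13 and 2.57), a repressor of growth factor signalling, and miR-505-3p (3.16 and 2.46) followed in size. miR-186-5p had 1.90 in My5/LV and 3.16 in My5/CRBN. From the miR-17-92 transcript, the scarcer arms miR-18a-3p (2.37 and 2.52) and miR-20a-3p (1.88 and 2.13) were in the list, but the scarcer arm miR-19a-5p (1.45 and 1.13) was past 3 fold in neither line, and the abundant arms miR-18a-5p (1.69 and 1.25) and miR-20a-5p (1.45 and 1.51) were past 3 fold in at most 1 line. miR-15a-5p, lost with its locus in many chronic lymphocytic leukaemias, had 2.03 and 1.93, and the passenger strand of its paralogue, miR-15b-3p, had 2.33 and 2.05. miR-33a-5p, which lies in SREBF2 and targets cholesterol export, had 1.90 and 1.68.

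**Figure D1:**
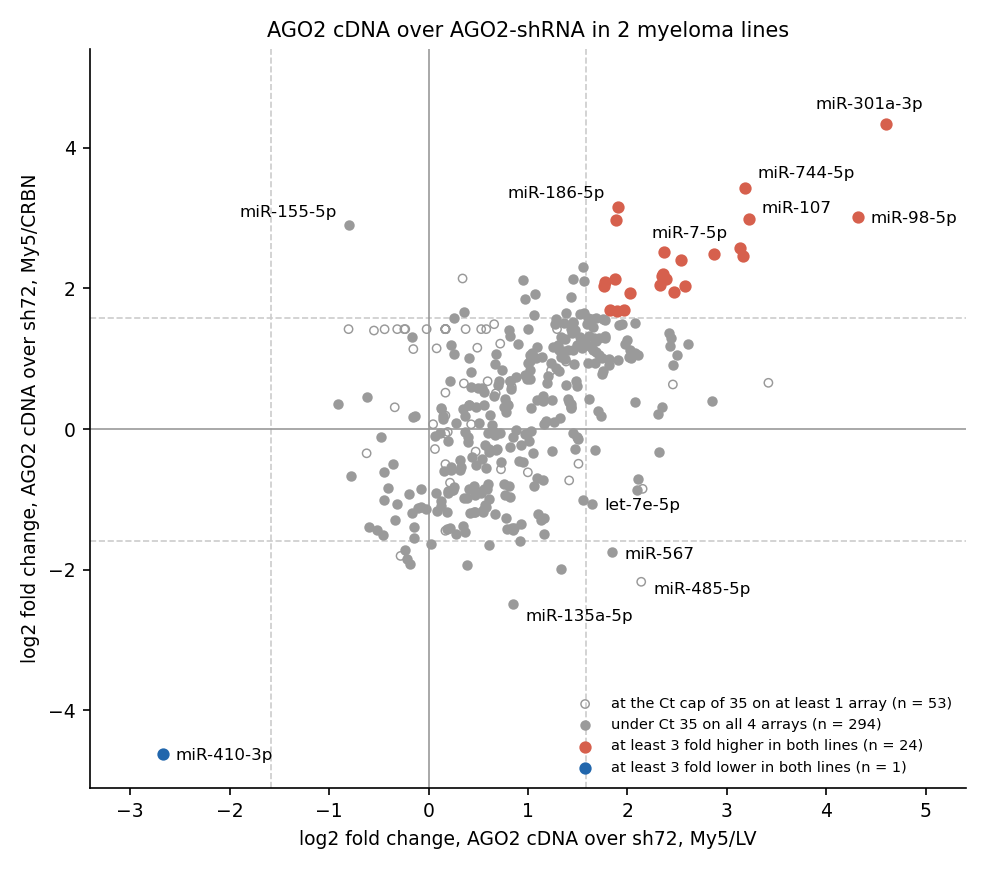
Log2 fold change of each of the 372 miRNAs, AGO2 cDNA over sh72, in My5/LV (x axis) and My5/CRBN (y axis), 1 array per condition, with dashed lines at 3 fold. The 24 red points are at least 3 fold higher in both lines, led by miR-301a-3p (4.60 and 4.34), and miR-410-3p lies alone at -2.67 and -4.61. With the global mean as normalizer all points move by the same amount, and 7 of the 24 stay past 3 fold in both lines. Open points are at the Ct cap on at least 1 array.

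miR-410-3p was the exception in the opposite direction. Its Ct was 27.97 with sh72 and 30.81 with AGO2 cDNA in My5/LV, and 26.87 and 32.90 in My5/CRBN, for log2 fold changes of -2.67 and -4.61. After normalization, sh72 exceeded the untreated array in both lines (untreated minus sh72 of -3.37 and -3.84), while AGO2 cDNA minus untreated was 0.70 and -0.77. miR-410-3p belongs to the imprinted cluster on chromosome 14, a long series of miRNA genes expressed from the maternal allele. The other 27 measured members of that cluster did not share the size of its difference. Their values ran from -0.52 to 2.32 (median 0.20) in My5/LV, and in My5/CRBN from -2.17 to 1.52 (median -0.58). One of them, miR-300, had -0.457 and -1.499. miR-300, miR-302b-5p and miR-410-3p were the 3 miRNAs that were higher on both sh72 arrays than on every one of the other 10 arrays of the series.

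Where the untreated cells lay was asked next, since a difference between overexpression and silencing can come from either side. For the 24 shared miRNAs, untreated cells exceeded sh72 cells by a median of 1.96 on the log2 scale in My5/LV and 1.84 in My5/CRBN, and by at least 3 fold for 17 of the 24 in each line. AGO2 cDNA exceeded untreated cells by a median of 0.44 and 0.68, and by at least 3 fold for 2 and 1 of the 24. miR-551b-3p was one of the exceptions in My5/LV, with a Ct of 32.8 with sh72, 32.1 untreated and 30.1 with AGO2 cDNA (3.02 over untreated after normalization). miR-99a-3p was the other, with 32.6, 31.7 and 30.9 (1.74). In My5/CRBN the exception was miR-378a-3p, with 27.07, 27.04 and 26.46 (1.65), on an array whose control wells were late. Both sh72 arrays were below all other 10 arrays of the series for 126 of the 372 miRNAs (33.9%) and for 19 of the 24. The 24 were chosen with these sh72 and AGO2 cDNA arrays, so their medians and counts only describe them, and the comparison was added after the data were seen. Over all 372 assays, untreated cells exceeded sh72 cells by a median of 0.79 (My5/LV) and 0.52 (My5/CRBN). AGO2 cDNA minus untreated had medians of 0.17 and -0.11 over all assays. All of these values rest on the small-RNA wells as normalizer.

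**Figure D2:**
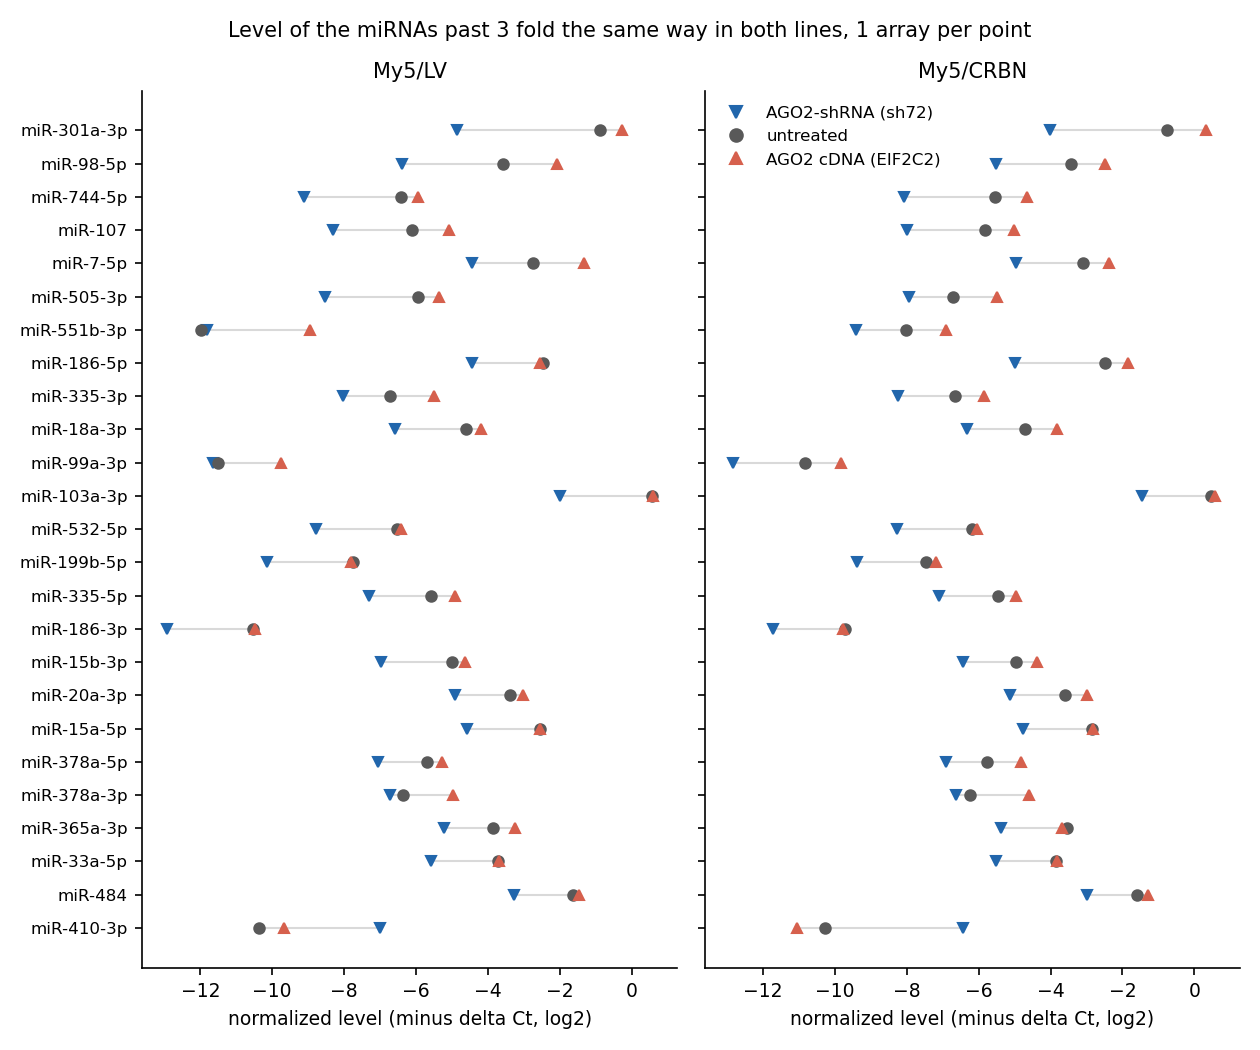
Normalized level (minus delta Ct, log2 scale) of the 24 miRNAs at least 3 fold higher with AGO2 cDNA in both lines, and of miR-410-3p, with sh72 (triangle down), untreated (circle) and AGO2 cDNA (triangle up), 1 array per point. For 17 (My5/LV) and 19 (My5/CRBN) of the 24 miRNAs the untreated array lies within 2 fold of the AGO2 cDNA array, and for miR-410-3p the sh72 array lies to the right of both others.

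Across all miRNAs the lines resembled each other, most for abundant miRNAs. Over the 319 miRNAs under Ct 35 on the 4 arrays, Pearson's r between the log2 fold changes of the 2 lines was 0.67 and Spearman's rho 0.65. This is a description across miRNAs, which share the arrays, the normalizer and the level of each assay, and no normalizer alters r or rho. The counts by sign that follow do depend on the normalizer. The global mean, for instance, moves every miRNA by -1.03 in My5/LV and by -0.32 in My5/CRBN. The sign was the same in both lines for 207 of them (184 above 0 and 23 below), 6 were above 0 in My5/CRBN alone, and the rest in My5/LV alone. By the mean Ct of the untreated arrays, r was 0.75 over the 77 miRNAs under 24, 0.77 from 24 to 26, 0.83 from 26 to 28, 0.50 from 28 to 30, 0.51 from 30 to 32, and 0.24 over the 26 at 32 and over. Of the 59 miRNAs past 3 fold in My5/LV only, 51 were above 0 in My5/CRBN, with a median of 1.05. Of the 14 past 3 fold in My5/CRBN only, 13 were above 0 in My5/LV, with a median of 1.23.

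With the Ct cap of 35, the difference between AGO2 cDNA and sh72 was larger for miRNAs of high level. The 165 miRNAs with a mean untreated Ct under 28 had medians of 1.35 (My5/LV) and 0.94 (My5/CRBN), and 20 of the 24 shared miRNAs were among them. For the 207 at 28 and over the medians were 0.57 and -0.06. In the class from 28 to 30 the lines lay furthest apart, with 0.61 in My5/LV and -0.51 in My5/CRBN. The My5/CRBN medians did not fall steadily with level, being -0.17 from 30 to 32 and 0.52 at 32 and over. Among the latter under Ct 35 on both My5/CRBN arrays the median was 0.31. A miRNA at the cap on both of these arrays takes the value 1.42 from the small-RNA wells alone. Of the 13 miRNAs called lower in My5/CRBN, 10 had an untreated Ct of 28 and over. The difference between the classes does not depend on the normalizer, which moves all classes alike. It can depend on the Ct cap, which acts on the late classes. With a cap of 32 the My5/CRBN median of all assays was 1.01, against 0.41 with the cap of 35. Medians by class were not taken at that cap.

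**Figure D3:**
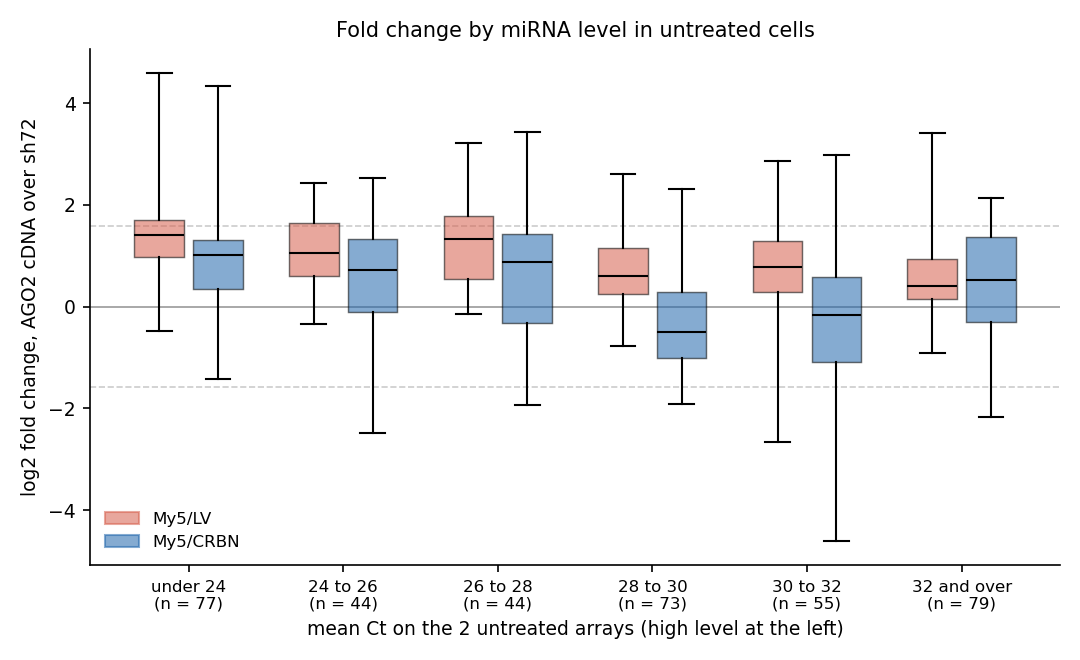
Log2 fold change, AGO2 cDNA over sh72, by class of mean Ct on the untreated arrays, for My5/LV (red) and My5/CRBN (blue). Boxes give the quartiles and median over miRNAs and whiskers the whole range. The medians are 1.40 and 1.02 under Ct 24 and 0.61 and -0.51 from 28 to 30, and another normalizer would move all boxes of a line together.

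Families of abundant miRNAs were mostly above the median of all assays, 0.86 in My5/LV and 0.41 in My5/CRBN, as abundant miRNAs were in general. The 77 miRNAs with an untreated Ct under 24 had medians of 1.40 and 1.02, with 27 and 11 of them past 3 fold. The medians of the 5 miR-30 assays were 1.65 and 1.20, and those of the 5 assays of miR-23, miR-24 and miR-27 were 1.52 and 1.02. The 5 assays of the miR-17, miR-20, miR-93 and miR-106 family, the growth-promoting core of miR-17-92 and its paralogues, had 1.45 and 1.00. The 4 assays of miR-18 and miR-19 had 1.48 and 1.28, and the 5 assays of miR-25, miR-32, miR-92 and miR-363 had 1.31 and 1.12. For the 6 assays of the miR-15 and miR-16 family, which restrain BCL2 and the cell cycle, the medians were 1.11 and 1.12. Past 3 fold were 3 of the 5 miR-30 assays in My5/LV and 0 in My5/CRBN, and 2 and 1 of the 5 miR-23, miR-24 and miR-27 assays, against 22.3% and 10.2% of all assays.

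Other families were close to the median of all assays or below it. The miR-29 assays, which target collagens and DNA methyltransferases, ran from 0.41 to 0.80 in My5/LV, and in My5/CRBN from 0.34 to 0.43. The medians of miR-26 were 0.64 and 0.03 and those of miR-181, a family that tunes lymphocyte signalling, 0.90 and 0.44. With the global mean every miRNA moves by -1.03 in My5/LV and by -0.32 in My5/CRBN, and the My5/LV medians of these 3 families and the My5/CRBN median of miR-26 were then below 0. The oncomir miR-21-5p had 0.97 in My5/LV and 1.85 in My5/CRBN, from Ct values of 19.7 with sh72 and 18.9 with AGO2 cDNA in My5/LV and of 19.2 and 18.8 in My5/CRBN.

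Among the 9 haematopoietic miRNAs the medians were 1.00 and 0.94, with 1 past 3 fold in My5/LV (miR-142-5p, 2.07) and 2 in My5/CRBN (miR-155-5p, 2.90, and miR-223-3p, 2.31), where 22.3% and 10.2% of all assays were. With the global mean the My5/LV median was -0.03. miR-155-5p, a driver of lymphoid growth in many settings, was near the limit of detection in these cells. Its Ct was 33.2 with sh72 and 34.2 with AGO2 cDNA in My5/LV (-0.80), and 34.2 and 32.7 in My5/CRBN. The miRNAs whose maturation uses AGO2 slicing did not stand out. miR-451a had a Ct of 32.2 with sh72 and 30.9 with AGO2 cDNA in My5/LV (1.497), and 30.4 and 31.9 in My5/CRBN (-0.11). miR-486-5p had 26.6 and 26.5 in My5/LV (0.36), and 26.1 and 28.6 in My5/CRBN (-0.99). Neither was past 3 fold in either line, and the median of both in My5/LV turned below 0 with the global mean (-0.107).

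Groups with many miRNAs of low level are given next. The medians of the chromosome 14, embryonic and placental, p53-linked and other-tissue groups were below 0 in My5/LV with the global mean, as was that of the embryonic and placental group in My5/CRBN. The 28 measured miRNAs of the chromosome 14 cluster had a median of 0.18 in My5/LV, with 3 at least 3 fold higher and 1 lower, and of -0.68 in My5/CRBN, with 0 higher and 5 lower. The shares over all assays were 22.3% higher and 0.269% lower in My5/LV, and 10.2% and 3.49% in My5/CRBN. Its My5/LV median was also below 0 with the reverse transcription control wells (-0.062). The 16 miRNAs of the embryonic and placental clusters, with a median untreated Ct of 33.2, had medians of 0.45 and 0.18, and of those under Ct 35 on both arrays the My5/CRBN median was -1.10. For the 7 p53-linked miRNAs of the miR-34, miR-192, miR-194 and miR-215 families the medians were 1.02 and 0.38, with miR-192-5p at 1.02 and 1.05 and miR-34a-5p at 1.127 and -1.298. The 4 assays of the miR-424 and miR-542 cluster had 1.58 and 0.48, with both arms of miR-542 past 3 fold in My5/LV (2.03 and 2.10) and neither in My5/CRBN (1.12 and -0.87). The 14 matched miRNAs of other tissues had medians of 0.97 and 0.43, with miR-9-5p past 3 fold in My5/LV (1.91). The assay named miR-1 was not matched to this list and is not counted. The paper lists that miRNA among those lower with sh72 than with AGO2 cDNA in My5/LV.

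**Figure D4:**
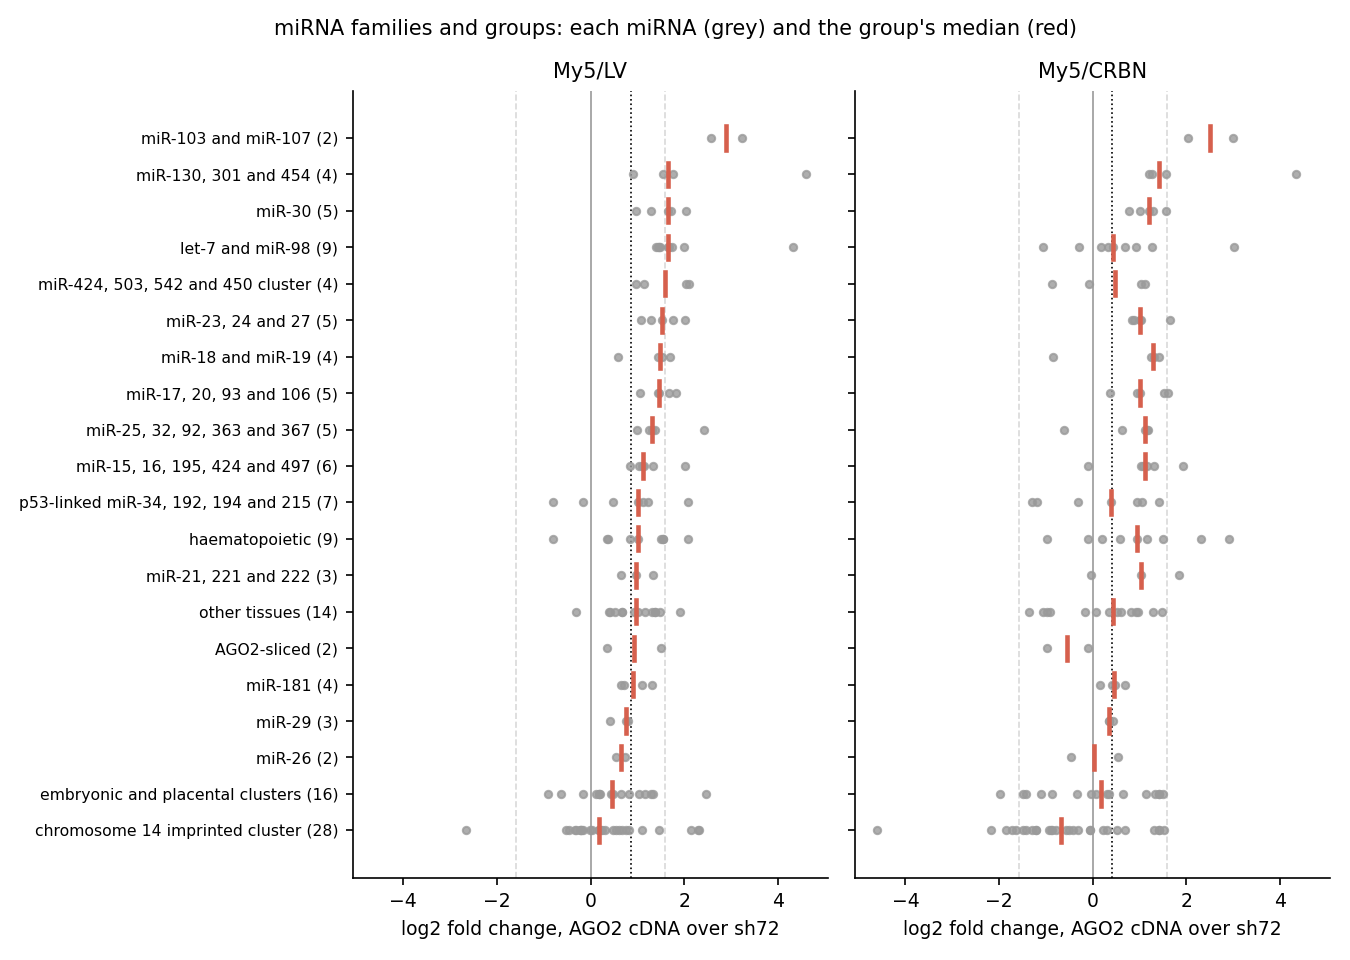
Log2 fold change, AGO2 cDNA over sh72, of each miRNA (grey) in 20 families and groups with the number of assays in brackets, and the group's median (red), for My5/LV and My5/CRBN. The dotted line is the median of all 372 assays (0.86 and 0.41) and dashed lines mark 3 fold. miR-103 and miR-107 have the highest medians (2.90 and 2.51) and the chromosome 14 cluster the lowest (0.18 and -0.68). With the global mean as normalizer all My5/LV points move by -1.03 and all My5/CRBN points by -0.32, and the medians of 10 groups (My5/LV) and 2 groups (My5/CRBN) turn below 0.

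Relative to the small-RNA wells, the let-7 and miR-98 family differed between the lines more in AGO2 cDNA than in sh72, each against untreated cells. Untreated cells exceeded sh72 cells by 1.40 to 2.82 in My5/LV and by 1.08 to 2.06 in My5/CRBN, in 9 of 9 assays each. AGO2 cDNA minus untreated had a median of -0.02 in My5/LV but of -0.997 in My5/CRBN, where 8 of 9 assays were below the untreated array and let-7e-5p was lowest (-2.31). In the miR-17, miR-20, miR-93 and miR-106 family the same medians were -0.14 and -0.53, and over all assays they were 0.17 and -0.11. The values from an untreated array share that array's error within a line. The AGO2 cDNA values of My5/CRBN come from the array with late control wells, and its part was not tested. For AGO2 cDNA over sh72, the medians of this let-7 and miR-98 family were 1.65 (My5/LV) and 0.43 (My5/CRBN). They were 1.40 and 0.73 with the reverse transcription control wells as normalizer.

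Differences between the lines were mostly toward a larger value in My5/LV, with a median of 0.54 over all miRNAs. The log2 fold change was larger in My5/LV by at least 3 fold for 61 miRNAs, 48 of them with an untreated Ct of 28 and over, and larger in My5/CRBN for 8. Of these, 53 and 1 were under Ct 35 on all 4 arrays, and with the reverse transcription control wells as normalizer the counts were 25 and 26. Among miRNAs under Ct 35 on all 4 arrays and under Ct 32 on at least 1 of each line, the largest differences were those of miR-567 (1.84 in My5/LV, -1.75 in My5/CRBN, where a cap of 32 turned the value to 0.11), miR-135a-5p (0.85 and -2.49), miR-542-5p (2.10 and -0.87), miR-10a-5p (2.10 and -0.71) and let-7e-5p (1.65 and -1.06). miR-135a-5p had a Ct of 25.5 with sh72 and 24.8 with AGO2 cDNA in My5/LV, and 24.3 and 28.2 in My5/CRBN. In the other direction were miR-323b-5p (-0.16 in My5/LV, 1.31 in My5/CRBN), miR-449a (0.36 and 1.66), miR-186-5p, miR-99a-3p (1.88 and 2.98) and miR-27a-5p (0.22 and 1.20). These differences were not tested, and the late control wells of My5/CRBN/EIF2C2 moved with them.

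At the lower end of My5/LV, among miRNAs under Ct 35 on both its arrays, miR-410-3p was followed by miR-302a-5p (-0.91), miR-155-5p, miR-22-5p (-0.78) and miR-373-3p (-0.62), none of them past 3 fold. By the same limit on the My5/CRBN arrays, which leaves out miR-485-5p, the lowest there after miR-410-3p and miR-135a-5p were miR-372-3p (-1.98, and 1.01 with a cap of 32), miR-1180-3p (-1.94) and miR-708-5p (-1.92). miR-372-3p had a Ct of 31.6 with sh72 and just under the cap with AGO2 cDNA. miR-1180-3p had 25.2 with sh72 and 28.6 with AGO2 cDNA in My5/CRBN, against 25.9 and 25.7 in My5/LV (0.38). The assay named miR-720, which reads a tRNA fragment, had -0.48 and -0.11.

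The arms of a hairpin are made in equal number, so their later levels depend in part on which strand is kept. An arm with loci in more than 1 hairpin, such as miR-181a-5p, can also come from the other hairpin. The array has both arms of 86 hairpins, and for 67 of them both were under Ct 35 on the 4 arrays. The arm with the higher level in untreated cells had a median of 1.30 (My5/LV) and 1.02 (My5/CRBN), and the other arm 0.82 and 0.31. The higher arm had the larger value for 44 of 67 hairpins in My5/LV and 40 of 67 in My5/CRBN. The level itself went with the size of the difference, as given above, and its part here was not tested. Across hairpins the arms correlated weakly, with a Pearson r of 0.32 and 0.24, over pairs that share an array. Both arms of miR-186, miR-335 and miR-378a were at least 3 fold higher in both lines. The arms of miR-335 had 2.39 and 2.54 in My5/LV, and 2.13 and 2.40 in My5/CRBN, and those of miR-378a had 1.78 and 1.76 in My5/LV and 2.10 and 2.03 in My5/CRBN.

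The arms of other hairpins parted. They differed by at least 3 fold for 5 hairpins in My5/LV and 13 in My5/CRBN, and for 0 in the same direction in both lines. miR-33a-5p had 1.68 in My5/CRBN, whereas miR-33a-3p had -1.40 there and 0.84 in My5/LV. miR-191-5p had 1.59 (My5/LV) and 1.50 (My5/CRBN), and miR-191-3p 0.22 and -1.41. For miR-155 the order of the arms turned between the lines, with the 3p arm at 0.86 and -1.40 and the 5p arm at -0.80 and 2.90. The 5p arm was near the limit of detection, as given above, so this turn rests on late single wells.

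**Figure D5:**
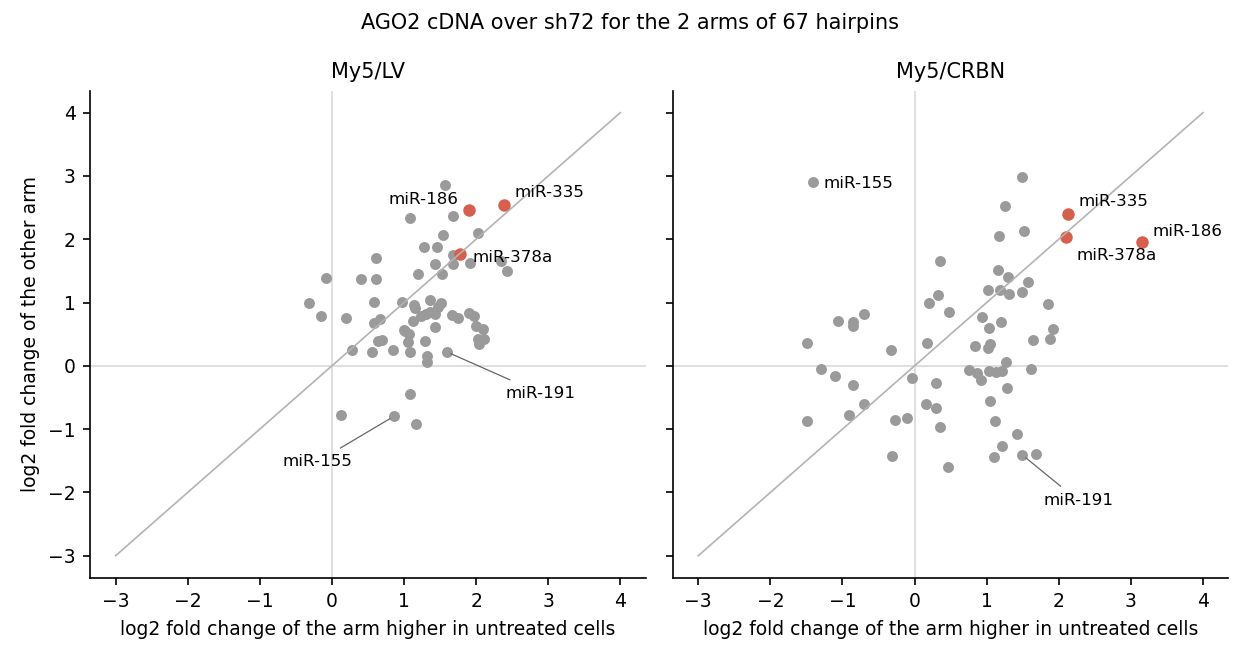
Log2 fold change, AGO2 cDNA over sh72, of the arm with the higher level in untreated cells (x axis) and of the other arm (y axis) for 67 hairpins, with the line of equal values. Most points lie below the line (44 of 67 in My5/LV and 40 of 67 in My5/CRBN), and the 3 red hairpins have both arms at least 3 fold higher in both lines.

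Features of the mature sequence were set beside the values for the 330 assays with a RefSeq sequence. The 144 miRNAs that begin with U, the base that the argonaute pocket binds best together with A, had a median of 1.16 (My5/LV) and 0.63 (My5/CRBN), against 0.76 and 0.30 for the 91 with A, 0.82 and 0.30 for the 67 with C and 0.47 and 0.12 for the 28 with G. The miRNAs with U were also more abundant, with a median untreated Ct of 26.8 against 28.9 to 29.2 for the other bases. Under an untreated Ct of 28 the medians were 1.37 and 0.94 with U, 1.28 and 0.84 with A and 1.14 and 1.00 with C, and 7 miRNAs with G had 0.69 and -0.23. Of the shared miRNAs with a sequence, 38.1% began with U, as did 43.6% of all. The third of the miRNAs with the lowest GC content had medians of 1.16 and 0.78, and the third with the highest 0.61 and -0.10. These are descriptions of single wells, and what the features do was not tested.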

How the data were processed

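As deposited by the authors, the table holds the Ct of each well of 384-well miScript miRNA PCR Arrays, with no normalization, for 372 miRNA assays and 12 control wells. Per the study's methods, cDNA for the arrays came from total RNA and a miScript kit. The authors' deposited table of fold ratios to the untreated My5/LV array was not used. Ct values were capped at 35, the mean of 6 small-RNA wells was subtracted, and log2 fold changes were called at 3 fold, over all 372 miRNAs. The 7 alternatives were 4 other normalizers, a cap of 32 and 2 filters on low levels. With 1 array per condition no test was made, and each value rests on 1 well. Arrays have no sequencing depth, and their number limits the precision.

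The named miRNAs were those at least 3 fold different the same way in both lines, the 5 largest changes in each direction per line (among miRNAs under Ct 35 on both its arrays), the 5 largest differences between the lines in each direction (among miRNAs under Ct 35 on all 4 arrays and under 32 on at least 1 of each line), hairpins whose arms differed by 3 fold in both lines, miR-451a, miR-486-5p, miR-410-3p, miR-720, and members of 20 lists of families and groups, drawn from textbook knowledge. miR-300, miR-302b-5p, miR-33a-3p, miR-191-5p, miR-191-3p and miR-155-3p, together with the miRNAs named in the section on other observations, were chosen by name after seeing their values. The miRNAs compared and the lists were chosen with earlier results of these data known. Sequences and positions were read from RefSeq tables (GRCh38.p14). On simulated arrays 60 of 60 changed and 0 of 190 unchanged miRNAs were called. The size of the changes and the noise were set in advance, so these counts only check the calculation. They give no error rate for calls from single wells of the real arrays. Python 3.11.15, NumPy 2.4.6, pandas 2.3.3 and Matplotlib 3.10.9 were used.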

Additional observations from a re-analysis of the deposited data

Results flagged for a closer look

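Among the miRNAs on opposite sides of 0 in the 2 lines, miR-485-5p and miR-567 were past 3 fold in both, in opposite directions. miR-485-5p, of the chromosome 14 cluster, had a log2 fold change of 2.14 in My5/LV (Ct 33.7 with sh72 and 31.7 with AGO2 cDNA) and of -2.17 in My5/CRBN, where it was at the cap with AGO2 cDNA against a Ct of 31.4 with sh72, so that the difference of 4.31 is a bound. miR-567 had 1.84 (Ct 32.9 and 31.2) and -1.75 (Ct 30.7 and 33.9), a difference of 3.60. With a Ct cap of 32, miR-485-5p had 0.46 (My5/LV) and 0.83 (My5/CRBN) and miR-567 had 0.94 and 0.11, so that neither was past 3 fold or of opposite sign. The difference between the lines was not tested for either, and all of these are single wells with a Ct above 30.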

How the results depend on the processing

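No paired analysis was possible because each condition has 1 array. The values given were 83 higher and 1 lower in My5/LV, 38 and 13 in My5/CRBN, 24 and 1 in both lines, and differences between the lines of 61 (larger in My5/LV) and 8 (larger in My5/CRBN). With the global mean as normalizer, 9 were higher and 8 lower in My5/LV, 34 were lower in My5/CRBN, 7 were higher and 2 lower in both lines, and 18 and 29 differed between the lines. The My5/LV median was then -0.18, and medians of 10 lists turned below 0 there, namely the chromosome 14 cluster (-0.851), miR-29 (-0.27), miR-26 (-0.39), miR-181 (-0.13), miR-21, miR-221 and miR-222 (-0.059), haematopoietic (-0.029), AGO2-sliced (-0.11), other tissues (-0.067), embryonic and placental (-0.58) and p53-linked (-0.017). In My5/CRBN those of miR-26 (-0.290) and of the embryonic and placental group (-0.139) did so. This normalizer sets the average change to about 0 by construction. The share of higher among the called miRNAs was 98.8% in My5/LV and 74.5% in My5/CRBN, and 52.9% and 45.2% with the global mean. With RNU6-2 alone the My5/CRBN share was 91.8%, with the reverse transcription wells 93.7% and with a cap of 32 85.0%. With RNU6-2 alone, 136 were higher in My5/LV (median 1.20), 78 higher and 7 lower in My5/CRBN, and 51 higher in both lines, including all 24. With the reverse transcription control wells, 50 were higher in My5/LV (median 0.61), 89 higher and 6 lower in My5/CRBN, and 25 and 26 differed between the lines, while 21 of the 24 were among 26 higher in both. With a cap of 32, the My5/CRBN median was 1.01 with 6 lower, 28 and 0 differed between the lines, and miR-372-3p (1.01) and miR-567 (0.11) turned above 0 in My5/CRBN. Over miRNAs under Ct 35 on the arrays compared, 1 had a larger value in My5/CRBN. Over those under Ct 30 on at least 1 array, the My5/LV median was 1.11, 8 were lower in My5/CRBN, and 30 and 0 differed between the lines. Group medians that turned below 0 under the filters were, in My5/CRBN, the embryonic and placental (-1.10 under Ct 35, -1.26 under Ct 30) and p53-linked groups (-0.125 under Ct 30), and in My5/LV the chromosome 14 cluster (-0.164 under Ct 30). Apart from the global mean, the cause of these changes was not tested. For the main results, 42 of the recomputed values were labelled as close to those given, 27 as moved and 1 as changed in sign. The SD of the small-RNA wells was the limit for log2 values only. Counts were labelled more loosely. Among those labelled close were 28 higher in My5/CRBN with the global mean, against 38, and 67 higher in My5/LV with a cap of 32, against 83. Of the single miRNAs, 438 stayed close, 142 moved, and 2 past 3 fold changed sign.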

Other observations

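Of the 318 miRNAs under Ct 35 on the 6 arrays without lenalidomide, 3 were at least 2 fold higher with both constructs, AGO2 cDNA and sh72, than in untreated cells of both lines, and 4 were at least 2 fold lower. These counts were made after the data were seen, and the values of a line share its untreated array. miR-221-3p, a repressor of the cell cycle inhibitor CDKN1B, was higher by 1.01 with sh72 and 2.34 with AGO2 cDNA in My5/LV, and by 1.16 and 2.19 in My5/CRBN. miR-181c-3p had 1.36 and 1.52 in My5/LV and 2.00 and 1.41 in My5/CRBN, and miR-338-3p had 1.38 and 1.60, and 1.48 and 2.17. The mean untreated Ct of miR-338-3p was 34.2, close to the cap of 35, so its values rest on wells near the limit of detection. On the lower side, miR-148b-3p had -2.29 with sh72 and -1.11 with AGO2 cDNA in My5/LV and -1.81 and -1.70 in My5/CRBN, miR-196a-5p had -2.15 and -1.001, and -1.79 and -1.32, and miR-26b-5p had -1.81 and -1.09, and -1.22 and -1.69. miR-155-3p had -1.98 and -1.13 in My5/LV and -1.23 and -2.63 in My5/CRBN. For these miRNAs infection and selection cannot be told apart from the inserts.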
